A study of Homo sapiens with 12 samples.

Results

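The mRNAs of 9 cell surface proteins were followed through a proximity labelling study of HEK293 cells: the tetraspanins CD9, CD63, CD81, CD82, CD151, TSPAN3 and TSPAN6, the immunoglobulin superfamily protein basigin (BSG), and CD99. They were taken by gene symbol from the 57773 genes of the RNA tables and by Ensembl identifier from the 19892 genes of the footprint sheets, and 9 of 9 were present in both. The set was chosen by name with the bound RNA and footprint values of these same libraries known, so the values below describe the genes and test nothing about how they were chosen. HEK293 is an established human embryonic kidney cell line, here in its T-Rex form, which allows a transgene to be switched on with doxycycline. In Proximity-CLIP, APEX2, a peroxidase fused to a targeting protein, turns biotin-phenol into a short-lived radical that tags nearby proteins. RNA crosslinked to the tagged proteins is then captured on streptavidin. The study used 4 kinds of cells: plain T-Rex cells without APEX2 as the negative control, and stable T-Rex lines inducibly expressing V5-APEX2-NES (cytoplasm, through a nuclear export signal), V5-H2B-APEX2 (chromatin, through a core histone) or Connexin43-EGFP-APEX2 (cell contacts, through a gap junction protein). Every group, the negative control included, is labelled as having received 4-thiouridine, a crosslinkable uridine analogue, together with doxycycline over 16 h, then biotin-phenol over 30 min. Total RNA, streptavidin-bound RNA and protein-protected RNA footprints were sequenced, which gives 12 groups of 1 sample, and the labels do not say how many clones stand behind each stable line.

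Tetraspanins are small proteins that cross the membrane several times, have a small and a large loop outside the cell, and gather integrins, proteases and other partners into microdomains of the plasma membrane and of endosomes. Basigin is a heavily glycosylated protein with a single membrane pass that escorts monocarboxylate transporters to the cell surface. CD99 is a small single-pass glycoprotein known from the adhesion and migration of leukocytes. All 9 are made on endoplasmic reticulum-bound ribosomes, so their mRNAs are exported from the nucleus and translated at a membrane.

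The 7 tetraspanins carry the family's Cys-Cys-Gly signature in the large outer loop, and the sequence around it shows how far their base composition differs. The codons searched for were TGC or TGT, again TGC or TGT, and GGN, in frame and on the coding strand only. They occurred in 7 of the 7 tetraspanin coding sequences, in neither BSG nor CD99, and in 2.74% of 19511 human coding sequences. The windows below run over 63 bases of coding sequence, 5′ to 3′, with these codons in capitals. CD81, like CD9 and CD63, has 2 such matches in frame. The one shown, starting at base 466 of 708, was chosen by its position along the coding sequence. They come from GENCODE 29 on GRCh38, from the transcript ranked first by APPRIS principal-isoform tag and then by coding sequence length. They are shown for the tetraspanins with the least and the most GC-rich transcripts. The reason is that differences between H2B-APEX2 and the other lines, described below, follow GC content.
TSPAN6: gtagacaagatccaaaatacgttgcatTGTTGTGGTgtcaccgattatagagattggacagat
TSPAN3: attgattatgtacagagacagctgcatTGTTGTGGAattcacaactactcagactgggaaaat
CD151: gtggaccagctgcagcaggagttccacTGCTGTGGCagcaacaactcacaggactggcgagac
CD81: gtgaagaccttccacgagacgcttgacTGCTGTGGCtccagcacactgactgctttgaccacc
The windows hold 39.7% (TSPAN6), 38.1% (TSPAN3), 60.3% (CD151) and 57.1% (CD81) G and C. Transcript GC content was taken over the longest transcript of each gene, which may differ from that of the windows. It was 38.6% in TSPAN6, 47.98% in TSPAN3, 51.4% in CD9, 54.7% in CD63 and 56.5% in CD99. It was 59.0% in CD82, 61.6% in BSG, 62.6% in CD151 and 64.9% in CD81. At the third base of each codon the range was wider, from 42.9% in TSPAN6 to 87.8% in BSG. Uridine, the base that 4-thiouridine replaces, made up 31.4% of the TSPAN6 transcript and 19.7% of the CD81 transcript. On hg19, the build of the deposited tables, TSPAN6 lies at chrX:99883666-99894988 on the minus strand, TSPAN3 at chr15:77336358-77376326 on the minus strand, and BSG at chr19:571296-583493 on the plus strand. CD151 lies at chr11:832842-839831 and CD81 at chr11:2397406-2418649, both on the plus strand, and the files class all 9 as protein-coding.

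The RNA came as 2 tables, of 2016 and of 2017. The 2016 table has a bound column for the negative control, APEX2-NES and Connexin43-APEX2 and 1 total column that names no line. The 2017 table has a bound and a total column for each of the 4 lines. Columns of the same line in both tables belong to 1 labelled sample and are no replicates, so agreement between them is given side by side and no p-value is given. Listed gene reads ranged from 8959049 to 56785950 per library, and protein-coding genes took between 3.50% and 60.1% of them. Of 30 genes expressed by fibroblast-like cells, 29 or 30 had reads in every library. Their summed bound level was 2073 RPKM (reads per kilobase of transcript, scaled to library size) in the 2016 negative control, 437 in the 2017 negative control and 149 to 315 in APEX2-NES and Connexin43-APEX2, against 18.0 in H2B-APEX2. In total RNA of the 2017 table it was 38.2 to 89.1. Of 10 markers listed for HEK293 cells, 6 to 10 had reads per library, and SOX11, LHX1, PAX2, NEFM and NEFH were at 0 in some. Their summed bound level ran from 20.0 RPKM in H2B-APEX2 to 279 in the 2016 negative control. No marker of blood, endothelium or liver other than the haemoglobin genes HBA1 and HBA2 was above 1 RPKM.

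Basigin was the most abundant of the 9 mRNAs per length of transcript in total RNA. Its total level was 42.6 RPKM in Connexin43-APEX2, 34.1 in H2B-APEX2, 29.8 in APEX2-NES and 62.6 in control cells. CD63, a tetraspanin of late endosomes and exosomes, came next at 16.1, 22.7, 18.0 and 33.6 RPKM in the same order. CD82, known as a suppressor of metastasis, was the least abundant, at 0.119 to 0.275 RPKM. The remaining 6 lay between 0.592 RPKM (CD9 in Connexin43-APEX2) and 9.85 RPKM (CD99 in the negative control).

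In bound RNA, basigin and the TSPAN3 and TSPAN6 mRNAs stood at opposite ends. Bound BSG was 44.7 RPKM (2016) and 40.9 RPKM (2017) in Connexin43-APEX2, 22.3 and 21.0 in the negative control, 9.70 and 26.7 in APEX2-NES, and 6.97 in H2B-APEX2. Both Connexin43-APEX2 libraries therefore held the highest of the 7 bound values and H2B-APEX2 the lowest. Bound TSPAN3 was 23.2 RPKM in H2B-APEX2, against 6.30 and 3.65 in the negative control, 1.17 and 3.32 in APEX2-NES, and 13.7 and 2.75 in Connexin43-APEX2. Bound TSPAN6 was 6.87 RPKM in H2B-APEX2 and between 0.372 and 2.51 in the other 6 bound libraries. The H2B-APEX2 library was thus the highest for both, and the 2016 Connexin43-APEX2 library came next.

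In RPKM, the other tetraspanin mRNAs and CD99 were highest in a negative control library, with the exception of CD81. For CD9 and CD99 this depended on the scaling. Per 1000000 listed reads, CD9 was highest in H2B-APEX2 (28.1), against 18.7 and 6.88 in control cells. On log2 levels centred on each library's median gene, CD9 was highest in 2017 Connexin43-APEX2 (-1.17, control cells -1.96 and -1.97). CD99 was then highest in 2017 APEX2-NES (0.31, against 0.23 in 2016 control cells). CD63, CD82 and CD151 stayed highest in control cells on both scales. Bound CD151, a partner of laminin-binding integrins, was 23.4 and 5.92 RPKM in the negative control, 2.94 and 6.59 in APEX2-NES, 1.60 in H2B-APEX2, and 12.3 and 6.56 in Connexin43-APEX2. Its H2B-APEX2 value was the lowest of the 7. CD151 overlaps POLR2L on the opposite strand, which had 135 (H2B-APEX2) to 4778 reads per library, and no source used here says whether counting used strand. Bound CD63 was 55.4 and 13.4 RPKM in the negative control, 7.62 and 16.3 in APEX2-NES, 18.6 in H2B-APEX2, and 23.9 and 12.5 in Connexin43-APEX2. Bound CD99 was 19.5 and 5.85 RPKM in the negative control, 3.05 and 8.21 in APEX2-NES, 3.12 in H2B-APEX2, and 3.96 and 2.38 in Connexin43-APEX2. For CD63 and CD99 the negative control was the highest of the 3 lines that both tables hold in 2016 but not in 2017, so the order of the lines differed between the tables. Bound CD81, known as part of the B cell co-receptor and as a receptor for hepatitis C virus, was 4.78 and 2.40 RPKM in the negative control, 1.27 and 2.32 in APEX2-NES, 1.65 in H2B-APEX2, and 5.89 and 3.36 in Connexin43-APEX2. Bound CD9, an adhesion protein required for the fusion of egg and sperm in mice, ranged from 0.606 to 3.50 RPKM, and bound CD82 from 0.318 to 2.70. The summed bound level of the 9 genes in the 2017 table was 72.3 RPKM in Connexin43-APEX2, 65.0 in H2B-APEX2, 67.2 in APEX2-NES and 57.2 in control cells. As reads per 1000000 listed reads, the sums spread more widely, at 1080, 1090, 746 and 453 in the same order. This measure is not divided by length and has another denominator. Listed reads made up 24.4%, 24.1%, 31.5% and 45.2% of the RPKM read total in that order. Per 1000000 protein-coding reads the sums were 3023, 1815, 2340 and 1404. TSPAN3 was the largest contributor to the RPKM sum in H2B-APEX2, and BSG in the other 3.

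**Figure D1:**
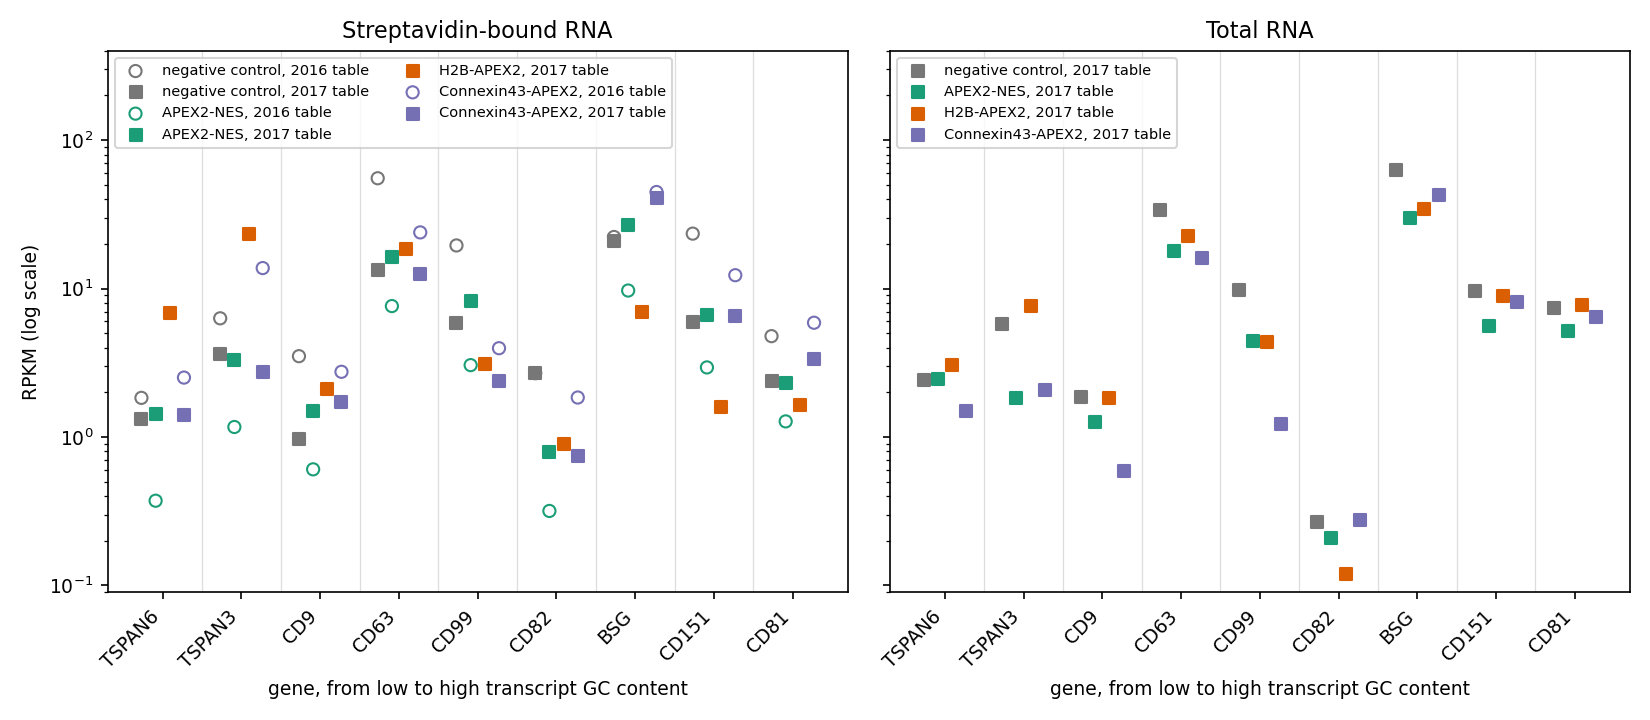
Bound RNA (left) and total RNA (right) of the 9 genes as RPKM on a log axis, 1 point per library, genes ordered from low to high transcript GC content. H2B-APEX2 is the highest bound library for TSPAN6 (6.87 RPKM) and TSPAN3 (23.2 RPKM) and the lowest for BSG (6.97 RPKM) and CD151 (1.60 RPKM).

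The first comparison asked which mRNAs were captured more at cell contacts than at chromatin, as bound minus total RNA in Connexin43-APEX2 less the same in H2B-APEX2 (2017 table). BSG was higher by 2.31 (log2, counting SE 0.04), CD151 by 1.89 (SE 0.08), CD99 by 1.21 (SE 0.10) and CD81 by 1.18 (SE 0.06). CD9 lay at 0.88 (SE 0.11) and CD63 at 0.17 (SE 0.06), while TSPAN3 lay at -0.97 (SE 0.06) and TSPAN6 at -0.77 (SE 0.10), all short of the 2-fold size used as the call. Differences are on the log2(RPKM + 1) scale, which understates changes of weakly expressed genes, and are relative to the median tested gene, which itself lay at -0.23. The counting SE covers the number of reads only, not differences between cultures. CD82 was not tested, because its mean over the libraries compared was under 1 RPKM.

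By this rule 4 of 8 members were higher in Connexin43-APEX2 and 0 lower, with a median of 1.03. Over all tested genes 25.2% were higher and 24% lower, and over protein-coding genes 24.7% and 21.4%. For CD99, whose bound level was slightly lower in Connexin43-APEX2 (2.38 against 3.12 RPKM), the difference came with total RNA, at 1.23 RPKM in Connexin43-APEX2 against 4.34 in H2B-APEX2. In bound RNA alone CD99 differed by 0.06 and BSG by 2.74. Without centring on the median gene the split was 2 higher (BSG, CD151) and 2 lower (TSPAN3 at -1.20, TSPAN6 at -1.01). With read counts scaled by TMM it was 5 higher and 2 lower.

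The differences followed the GC content of the transcripts. Across 2655 protein-coding genes Pearson's r between GC content and the difference was 0.63, and across the 8 members it was 0.84. Both are descriptions over genes that share the same 4 libraries. With the linear GC trend over tested genes taken out, BSG remained at 1.03 and was the one member still past 2-fold. CD151 then lay at 0.51 and CD99 at 0.45. The sign turned for CD81 (-0.45), TSPAN6 (0.28) and CD63 (-0.41), none of them past 2-fold there. Fibroblast-like genes moved the same way, with 13 of 17 tested at least 2-fold higher in Connexin43-APEX2 and 0 lower. Their part in the members' values was not tested.

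**Figure D2:**
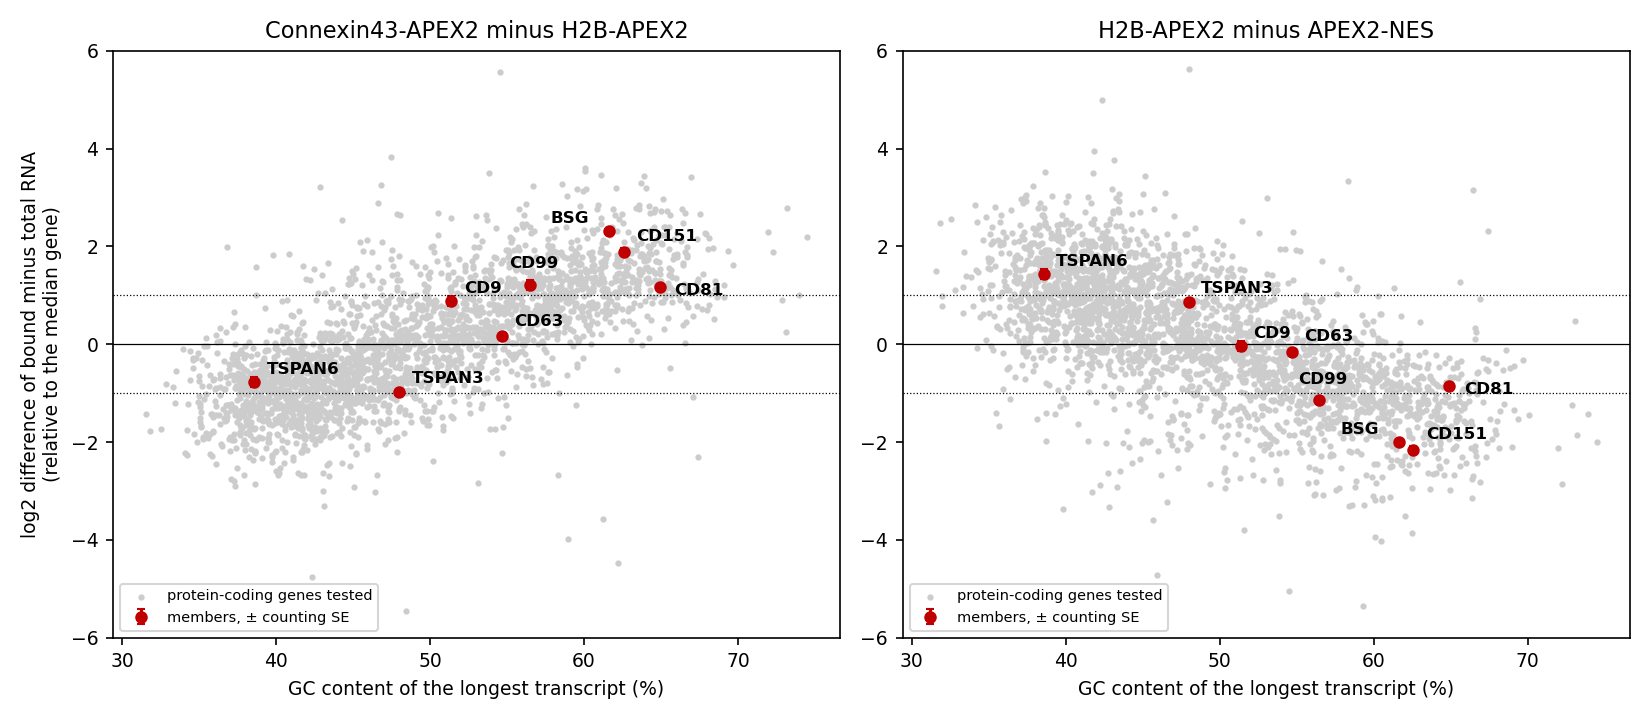
Difference in bound minus total RNA between lines (log2, relative to the median gene, 2017 table) against the GC content of the longest transcript, for protein-coding genes (grey) and the 8 members tested (red, with counting SE); dotted lines mark 2-fold. Members run along the trend of all genes, with BSG above it at 2.31 on the left, and TSPAN6 at the opposite end from BSG and CD151 in both panels.

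Chromatin against cytoplasm gave the mirror image for most members. In H2B-APEX2 less APEX2-NES, CD151 was lower by 2.15 on the log2 scale (value -2.15, SE 0.07), BSG stood at -2.00 (SE 0.04) and CD99 at -1.15 (SE 0.08). TSPAN6 was higher by 1.43 (SE 0.10), and TSPAN3, at 0.87 (SE 0.06), fell short of 2-fold. CD81 lay at -0.84, CD63 at -0.15 and CD9 at -0.03. In all, 1 of 8 was at least 2-fold higher and 3 lower, with a median of -0.50, against 25.1% and 24.9% of all tested genes and 26.1% and 21.9% of protein-coding ones. The correlation with GC content was -0.57 across 2857 protein-coding genes and -0.89 across the 8 members. With the GC trend taken out, none of the 8 stayed past 2-fold, CD151 lying at -0.91, BSG at -0.85, CD99 at -0.49 and TSPAN6 at 0.36, and CD81 changed sign to 0.63. Of 22 fibroblast-like genes tested, 21 were lower in H2B-APEX2, and their part in the members' values was not tested. The 2 comparisons share the H2B-APEX2 libraries and are not independent of each other.

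Cell contacts against cytoplasm showed no member past 2-fold in both tables as bound minus total RNA. The 2016 table has 1 total column for all lines, which cancels, so its value is a difference in bound RNA alone, while the 2017 value also takes off each line's own total RNA. In Connexin43-APEX2 less APEX2-NES, BSG lay at 0.38 in the 2016 table and 0.24 in the 2017 table, and CD151 at 0.04 and -0.33. TSPAN3 lay at 1.05 in 2016 and -0.17 in 2017, CD99 at -1.42 and -0.01, CD9 at -0.49 and 0.77, and TSPAN6 at -0.36 and 0.58. In bound RNA alone, the like quantity in both tables, CD99 was lower in Connexin43-APEX2 in each, at -1.30 and -1.27, the 1 member called, beside 1.09% of all tested genes lower and 0.209% higher, or 0.394% and 0.118% of protein-coding genes. Bound TSPAN3 lay at 1.18 and -0.03, CD9 at -0.37 and 0.30, and TSPAN6 at -0.23 and 0.16. For bound minus total RNA, both counts of 0 of 8 stand beside 0.197% of all tested genes called higher and 4.08% called lower, or 0.118% and 2.12% of protein-coding genes. A correlation with GC content was near 0 across 3390 protein-coding genes in either table (r 0.0007 in 2016 and 0.04 in 2017). The median gene lay at 1.72 in 2016, when the APEX2-NES library had 21.5% of its RPKM read total in listed genes, and at -0.15 in 2017.

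Capture without APEX2 is the background of the method, so each APEX2 line's bound RNA was compared with that captured from the negative control cells. In H2B-APEX2, TSPAN3 was higher by 2.66 (SE 0.04) and TSPAN6 by 2.05 (SE 0.07), while BSG stood at -1.18 (SE 0.04) and CD151 at -1.13 (SE 0.06). The remaining 5 lay between -0.68 (CD82) and 0.94 (CD9). Thus 2 of 9 rose and 2 fell at least 2-fold, against 25.2% and 17.2% of all tested genes and 25.5% and 10.3% of protein-coding genes. With the GC trend taken out TSPAN3 stayed at 2.46 and TSPAN6 at 1.27, while BSG lay at -0.56 and CD151 at -0.45, no longer past 2-fold. The median gene lay at -0.28 in this comparison.

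In Connexin43-APEX2, BSG was the only one of the 9 to exceed the negative control at least 2-fold in both tables, by 1.15 (SE 0.04) in 2016 and 1.27 (SE 0.03) in 2017. The same rule called 2.5% of all tested genes higher and 2.03% lower, or 1.42% and 0.818% of protein-coding genes. BSG stood at 0.97 and 0.93 without centring on the median gene, which lay at -0.17 and -0.34, and at 0.89 and 1.11 with the GC trend taken out. TSPAN3 lay at 1.19 in 2016 but 0.03 in 2017, and CD99 at -1.87 and -0.68. In APEX2-NES, 0 of 9 passed in either direction, against 1.65% higher and 1.03% lower of all tested genes and 0.367% and 0.333% of protein-coding genes. CD63 (-1.07 and 0.43), CD151 (-0.997 and 0.30) and CD99 (-0.71 and 0.59) had opposite signs in the 2 tables. These comparisons share the negative control libraries. In the 2016 negative control library, fibroblast-like genes reached 2073 RPKM and CD63, CD99 and CD151 their highest bound RPKM. Whether fibroblast-like cells were present, and what part their RNA would have in these values, was not tested.

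**Figure D3:**
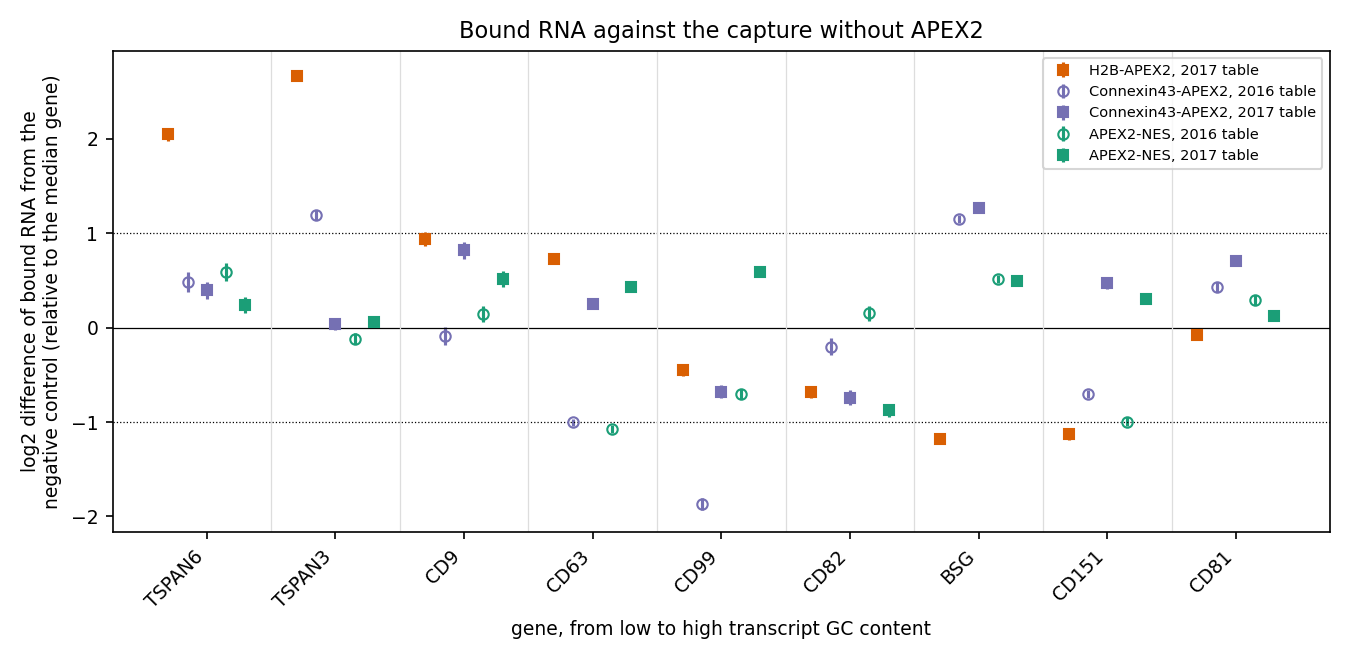
Bound RNA of the 3 APEX2 lines against the negative control (log2, relative to the median gene), 1 point per line and table with counting SE; dotted lines mark 2-fold. BSG in Connexin43-APEX2 lies at 1.15 and 1.27 and in H2B-APEX2 at -1.18, while TSPAN3 and TSPAN6 in H2B-APEX2 lie at 2.66 and 2.05.

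Within a line, bound over total RNA separates capture from abundance. Bound BSG was 0.205 times its total RPKM in H2B-APEX2 and 0.335 times without APEX2, but 0.897 times in APEX2-NES and 0.958 times in Connexin43-APEX2. CD81 showed the same order, at 0.213, 0.324, 0.450 and 0.519. For CD151 the H2B-APEX2 ratio of 0.179 was the lowest, with 0.611 in the negative control, 1.18 in APEX2-NES and 0.806 in Connexin43-APEX2. TSPAN3 ran the other way, with 3.05 in H2B-APEX2, 1.80 in APEX2-NES, 1.33 in Connexin43-APEX2 and 0.632 in the negative control. TSPAN6 stood at 2.23 in H2B-APEX2 and at 0.540 to 0.931 elsewhere. CD82 was above 1 in every line, from 2.71 in Connexin43-APEX2 to 10.1 in the negative control, but on total levels under 0.3 RPKM.

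Relative to the median gene, 4 of 8 members (BSG, CD151, CD81 and CD99) were at least 2-fold lower in bound than in total RNA of H2B-APEX2, against 33.2% of all tested genes and 24.3% of protein-coding genes. BSG lay at -2.85 there, CD151 at -2.65, CD81 at -2.43 and CD99 at -1.09. The count was 1 of 8 in APEX2-NES (CD81 at -1.31, beside 29.2% of all and 17.2% of protein-coding genes) and 0 of 8 in Connexin43-APEX2 (beside 29.3% and 13.7%). In the negative control 8 of 9 were lower, all but CD82, beside 33.2% of all genes and 26% of protein-coding genes. Among genes averaging at least 5 RPKM, where 4 members are tested and the median gene is another, 0 were lower there, and CD63 (0.14), CD151 (0.78) and CD99 (0.74) lay on the other side of 0. No member was at least 2-fold higher in any line, against 18.7% of all and 16.6% of protein-coding genes in H2B-APEX2, 22.9% and 18.7% in APEX2-NES, 20% and 16.6% in Connexin43-APEX2, and 20.1% and 11.7% in the negative control. These counts move with the scaling, because the median gene itself lay between 0.18 and 0.71 (log2) above its total level. Without centring, 3 of 9 were lower and 1 higher in the negative control, 3 lower and 1 higher in H2B-APEX2, and none lower in the other 2 lines. With TMM scaling, 6 were lower in H2B-APEX2, 6 in APEX2-NES and 5 in Connexin43-APEX2.

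**Figure D4:**
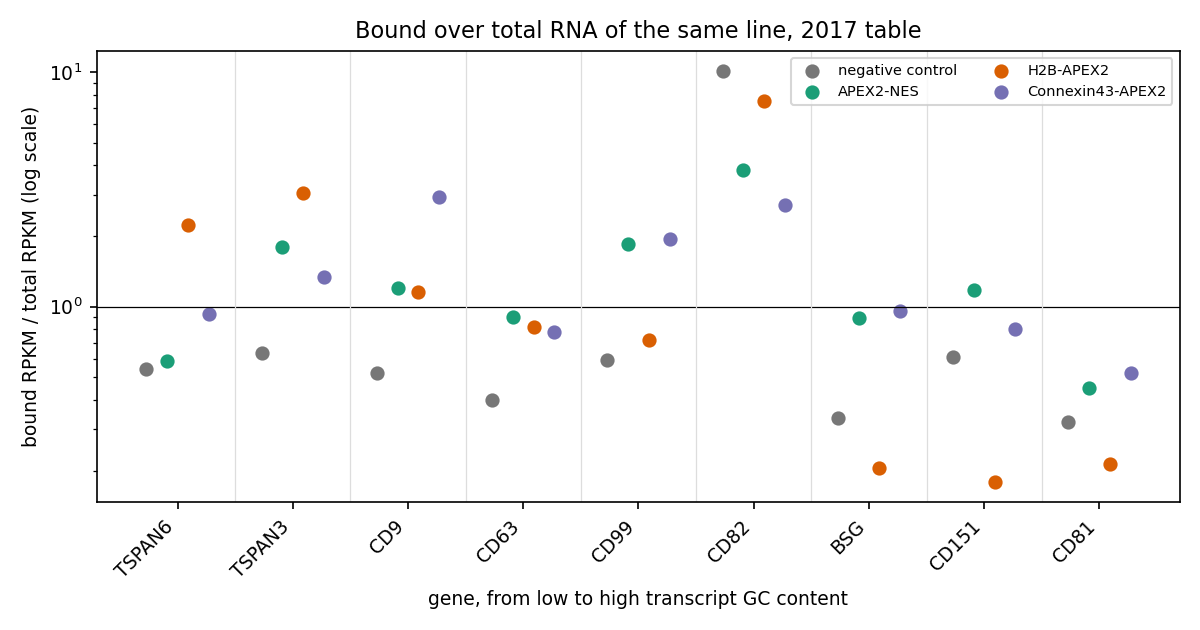
Ratio of bound to total RPKM in each line on a log axis (2017 table), genes ordered from low to high transcript GC content, 1 point per line. For BSG, CD151 and CD81 the H2B-APEX2 ratio is the lowest of the 4 lines (0.205, 0.179 and 0.213), and for TSPAN3 and TSPAN6 it is the highest (3.05 and 2.23).

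Total RNA of the members also differed between the lines. TSPAN3 ranged from 1.85 RPKM in APEX2-NES to 7.60 in H2B-APEX2, and CD99 from 1.23 in Connexin43-APEX2 to 9.85 in control cells. After centring, CD99 fell in Connexin43-APEX2, at -1.85 (SE 0.05) from the negative control, the only one of 8 past 2-fold in that line, beside 6.3% of all tested genes and 7.02% of protein-coding genes, and none was higher (12.3% and 4.33%). With TMM scaling or without centring, 3 of 8 were lower in that line. In H2B-APEX2 none of 8 passed, where 2.18% of all and 1.24% of protein-coding genes were lower and 2.23% and 1.55% higher. In APEX2-NES none of 8 passed either, where 4.3% and 4.23% were lower and 6.72% and 2.38% higher. CD99 was the lowest member in H2B-APEX2, at -0.85, and TSPAN3 in APEX2-NES, at -0.90. TSPAN3 lay at 0.52 in H2B-APEX2. Fibroblast-like genes summed to 89.1 RPKM in total RNA of Connexin43-APEX2 and 60.3 in that of the negative control, and in a bulk sample fewer cells of a type and less RNA per cell cannot be told apart.

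Footprints are short RNA stretches that crosslinked proteins shield from ribonuclease, and the sheets give, per gene and line, the reads in called clusters. They were compared as a share of each line's reads (270633 in Connexin43-APEX2, 1741844 in H2B-APEX2, 575990 in APEX2-NES and 185487 in control cells). A gene was called when the shares differed at least 4-fold and the exact 95% interval of the ratio, which covers counting error only, excluded 2-fold.

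BSG again had its minimum at chromatin. It had 61 reads in Connexin43-APEX2, 24 in H2B-APEX2, 185 in APEX2-NES and 60 in control cells, or 225, 13.8, 321 and 323 reads per 1000000 footprint reads of the line (RPM). Its share was 23.3-fold lower in H2B-APEX2 than in APEX2-NES (interval 15.2 to 37.3) and 23.5-fold lower than in the negative control (14.4 to 39.4). It was 16.4-fold higher in Connexin43-APEX2 than in H2B-APEX2 (10.0 to 27.4). The single H2B-APEX2 cluster lay in the coding sequence, which also held 47 of 60 reads in the negative control and 45 of 61 in Connexin43-APEX2. Between Connexin43-APEX2 and APEX2-NES the ratio was 0.702 (0.517 to 0.942), and BSG was not called.

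CD63 had 31 footprint reads in control cells, 63 in APEX2-NES and 39 in Connexin43-APEX2, and was listed at 0 in H2B-APEX2. Its bound RNA was not low there, with 3050 reads, and 89.4% of 188 other protein-coding genes with bound reads within 1.2-fold of that had a cluster. No fold is given, since a gene without a called cluster is listed at 0. CD151 had 15 reads in Connexin43-APEX2, 27 in H2B-APEX2, 12 in APEX2-NES and 19 in control cells. Its share was 4.92-fold lower in APEX2-NES (2.27 to 11.1) and 6.61-fold lower in H2B-APEX2 (3.47 to 12.3) than in the negative control. CD81 had 37, 160, 193 and 103 reads in the same order. Its share was 6.05-fold lower in H2B-APEX2 (4.67 to 7.79) and 4.06-fold lower in Connexin43-APEX2 (2.76 to 6.08) than in the negative control. The 3' untranslated region held most CD81 reads in the negative control (82.5%, exact interval 73.8 to 89.3) and in H2B-APEX2 (87.5%, 81.4 to 92.2), but 47.7% in APEX2-NES and 45.9% in Connexin43-APEX2.

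TSPAN3 was the most footprinted member, with 102 reads in Connexin43-APEX2, 916 in H2B-APEX2, 226 in APEX2-NES and 148 in control cells. These are 377, 526, 392 and 798 RPM, and no pair of lines differed 4-fold. What differed was where they lay. In H2B-APEX2, 32 of 39 clusters were intronic, against 1 of 6 in Connexin43-APEX2, 0 of 12 in APEX2-NES and 0 of 6 in the negative control. The intronic share of all clusters of a line was not computed, so only the shares of reads have a background. Intronic reads made up 23.7% there (exact interval 21.0 to 26.6), beside 19.9% of all H2B-APEX2 footprint reads. They were 4.90% in Connexin43-APEX2 (1.61 to 11.1), where introns took 9.80% of all reads. In APEX2-NES and the negative control TSPAN3 had 0 intronic reads, where introns took 3.94% and 10.4% of all reads. Of 6976 genes with an intronic cluster in H2B-APEX2, 268 had 32 or more, TSPAN3 among them. A single H2B-APEX2 cluster outside the annotated regions held 335 of the 916 reads. A sense intronic transcript, RP11-797A18.6, overlaps TSPAN3 on the same strand, and it had 22 bound reads in H2B-APEX2. TSPAN6 had 57 reads in H2B-APEX2, 9 in APEX2-NES, 8 in Connexin43-APEX2 and was listed at 0 in the negative control. CD9 had 61, 8, 12 and 8 in the same order, and neither was called in any pair.

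Among the members tested in each pair, calls were thus 1 lower (BSG) for H2B-APEX2 over APEX2-NES, beside 9.44% of all genes tested (6.69% higher), and 1 higher (BSG) for Connexin43-APEX2 over H2B-APEX2, beside 9.79% (3.63% lower). Against the negative control, 3 were lower in H2B-APEX2 (BSG, CD151, CD81; background 5.83%), 1 in APEX2-NES (CD151; 4.97%) and 1 in Connexin43-APEX2 (CD81; 4.59%). None was higher, beside 1.31%, 2.73% and 3.26% of genes. None was called for Connexin43-APEX2 over APEX2-NES (3.45% higher and 2.23% lower). Clusters were called per library, and 133881 were called in H2B-APEX2 against 20850 to 45015 in the others, so counts of reads depend on how much was called. As a share of clusters in place of reads, only 1 or 2 members per pair reached the minimum of 10, so BSG and CD151 could not be called that way.

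**Figure D5:**
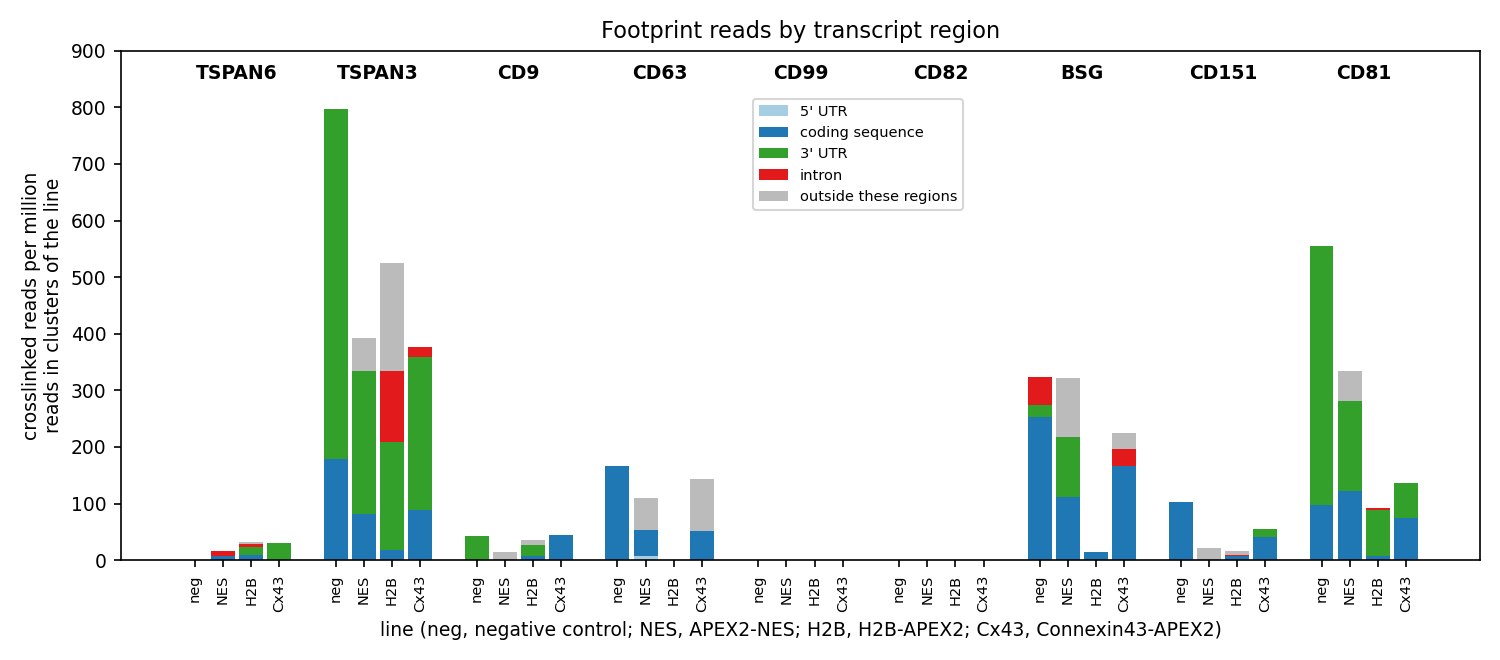
Footprint reads of each gene relative to all footprint reads of the line, stacked by transcript region, for cells without APEX2 (neg) and for APEX2-NES (NES), H2B-APEX2 (H2B) and Connexin43-APEX2 (Cx43). BSG is at 13.8 RPM in H2B-APEX2, CD63 is listed at 0 there, TSPAN3 gains intronic reads there, and CD99 and CD82 have none in any line.

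CD82 and CD99 had 0 clusters in all 4 lines. For CD82, other protein-coding genes with as many bound reads within 1.2-fold had a cluster in 57.2% to 85.6% of cases, depending on the line. For CD99 the share of such genes was 75.4% to 92.3%. CD99 lies in the pseudoautosomal region of the X chromosome (chrX:2609219-2659350 on the plus strand, hg19), whose sequence also stands on Y. All 14 protein-coding genes from the end of the short arm of X to CD99, itself included, had 0 clusters in each line. The 0 of CD99 is thus shared with these genes and is not read here as a measure of its own RNA. Whether each of them had enough bound RNA for a cluster was not examined, and the cause of the zeros was not tested.

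The genes around the members were followed by fixed lists in the contrast of Connexin43-APEX2 with H2B-APEX2. Over all tested genes in this contrast 25.2% were called higher and 24% lower. The counts for tetraspanin partners, basigin and CD99 relatives and other surface glycoproteins are small and are not read as results about a list. Of 26 other tetraspanins 1 was abundant enough to be tested and it was not called, at -0.94. Of 22 tetraspanin partners 7 were tested, 2 higher and 2 lower. MMP14, a membrane-bound matrix protease, was higher by 1.34 (SE 0.08), and CD276, an immune checkpoint ligand, by 1.24 (SE 0.08). ITGB1, the integrin beta chain that tetraspanins bind through alpha partners, stood at -1.10 (SE 0.06), and the epithelial adhesion protein EPCAM at -1.62 (SE 0.10). Of 16 relatives and partners of basigin and CD99, 7 were tested, again 2 higher and 2 lower. SLC7A5 (1.69, SE 0.08) and SLC3A2 (1.03, SE 0.08), the light and heavy chains of an amino acid transporter that associates with basigin, were higher. EMB, embigin, a relative of basigin, stood at -2.18 (SE 0.08), and ATP1B3, a sodium pump beta chain, at -1.37 (SE 0.09). Of 27 other surface glycoproteins in the files 11 were tested. The amino acid transporter SLC1A5 (1.27, SE 0.09) and the cobalamin receptor CD320 (2.58, SE 0.09) were higher, and none was lower. Of the 10 HEK293 markers 5 were tested, and 2 of them, VIM (1.30) and KRT8 (1.15), which encode filament proteins, were higher, beside 25.2% of all genes. The other 3 were not called, and the lowest lay at -0.36. Abundant fibroblast-like genes called were also higher, from FN1 (1.31), S100A6 (1.34) and LGALS1 (1.35) to GREM1 (1.82) and THBS1 (1.90). So were HBA1 (2.11) and HBA2 (2.14), but their bound levels in Connexin43-APEX2 and H2B-APEX2 were low and close. They were 1.24 against 0.908 RPKM for HBA1 and 1.18 against 0.818 for HBA2. Summed total RNA of the blood, endothelium and liver markers was 9.62 RPKM in Connexin43-APEX2 against 34.5 in H2B-APEX2.

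Basigin and embigin thus differed in opposite directions, and so did their base composition, with 61.6% GC in the BSG transcript and 37.02% in that of EMB. The 6 surface protein genes of the lists named as higher had 57.4% to 61.3% GC, and the 4 named as lower 37.02% to 47.0%. The marker genes named as higher did not share that composition, with 39.8% in GREM1, 42.2% in FN1, 45.6% in THBS1 and 46.9% in VIM, against 56.2% in KRT8, 58.4% in S100A6, 60.4% in LGALS1, 66.3% in HBA1 and 67.3% in HBA2. List medians were 0.79 for tetraspanin partners, 0.05 for basigin and CD99 relatives and 0.19 for other surface glycoproteins, beside 0 for all tested genes by construction and 1.03 for the members.

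Members did not move as a block over the 7 bound columns. Levels were taken as log2(RPKM + 1) relative to the median gene of each library. BSG followed CD81 (Pearson r 0.90) and TSPAN3 followed TSPAN6 (r 0.82), while TSPAN3 and CD151 ran against each other (r -0.97). The H2B-APEX2 column holds the highest value of TSPAN3 (1.53) and TSPAN6 (-0.09) and the lowest of CD151, BSG and CD81. In the other columns TSPAN3 lay between -1.26 and -0.17 and TSPAN6 between -2.63 and -1.35. No coefficient was computed without the H2B-APEX2 column. Of 1057 other abundant protein-coding genes, those whose pattern was most like the mean of the 9 members were NOMO1 (r 0.97), RPL27 (0.95), NOMO3 (0.94), RPL19 (0.89) and NOMO2 (0.89). NOMO1, NOMO2 and NOMO3 are near-identical copies whose reads could be shared between them, and their values are uncertain. These coefficients rest on 7 columns from 4 lines, ranked among many genes, and are descriptions only.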

How the data were processed

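Per the submitters' processing notes, reads were converted with bcl2fastq 2.17.1 and aligned with TopHat to hg19. No source used here names the counter, its annotation or the cluster caller. The authors deposited expected counts per gene (0.001 standing for 0) and RPKM values (1e-07 standing for 0), whose read totals exceed the listed reads in every library. Footprint sheets hold the authors' deposited counts of clusters and crosslinked reads per gene and region, long and short footprints pooled. The 2016 columns named for a line were taken as bound RNA.

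RNA levels were compared as log2(RPKM + 1), keeping genes that averaged 1 RPKM or more in the libraries entering a comparison, and were centred on the median tested gene. A call needed 2-fold, the same way in each table that has both lines. Each group is 1 sample, so calls are by size, without p-values, in 13 RNA and 6 footprint comparisons. SEs come from expected counts by the delta method. Footprint ratios needed 10 reads over the pair, and their intervals are exact binomial (95%). Intervals of shares are Clopper-Pearson. GC content and sequences are from GENCODE 29, joined by Ensembl identifier.

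Named genes are the 9 members, list genes past 2-fold in Connexin43-APEX2 less H2B-APEX2 (the most abundant at most 6 per list), and the 5 most like in pattern with at least 5 RPKM on average; 1 list gene that the rule names is not reported here. SLC25A6 and RP11-797A18.6 were named after their values were seen. Members and lists were chosen with earlier results of these data known. Python 3.11.15, numpy 2.4.6, pandas 2.3.3, scipy 1.17.1, matplotlib 3.10.9, R 4.3.3 and edgeR 4.0.16 (TMM only) were used, and the scripts were tested on simulated data.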

Additional observations from a re-analysis of the deposited data

Results flagged for a closer look

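BSG moved in opposite directions against the negative control in bound RNA. It lay at -1.18 (log2, 2017) in H2B-APEX2 and at 1.15 (2016) and 1.27 (2017) in Connexin43-APEX2, so it was lower in the one line and higher in the other than in the capture without APEX2. The difference between the lines was not tested, since each has 1 sample, and both 2017 values share the negative control library.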

How the results depend on the processing

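No paired analysis was possible because every group has 1 sample. Of 266 main results under an alternative, 190 stayed and 76 moved. A count of members stayed if it was within 1.5 times the main count. The intronic shares of TSPAN3 counted in clusters (2 stayed, 2 moved) stayed if inside the exact interval of the share in reads. Of 1157 single-gene values, 1023 stayed on their side of the threshold (915 with the same sign, 108 with the other sign), 53 dropped below it, 73 rose past it and 8 reversed. The reversals were CD81 in Connexin43-APEX2 less H2B-APEX2 with the GC trend removed (-0.45) and, at a mean RPKM of at least 5, CD63 (0.14), CD151 (0.78) and CD99 (0.74) in bound minus total RNA of the negative control, BSG in that of Connexin43-APEX2 (1.11) and CD151 in that of APEX2-NES (1.09). CD82 in APEX2-NES less the negative control (2016 table) lay at -1.07 without the filter and -1.49 without centring. The causes were not tested.

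In Connexin43-APEX2 less H2B-APEX2, members higher (main 4) numbered 1 with the GC trend removed and 2 at RPKM 5, without centring and at pseudocount 5. Those lower (main 0) numbered 2 in bound RNA alone, with TMM and without centring, and 1 at RPKM 5 and without the filter. In H2B-APEX2 less APEX2-NES, those higher (1) numbered 2 in bound RNA alone and 0 with the GC trend removed and at pseudocount 5, and those lower (3) numbered 0 with the GC trend removed. In Connexin43-APEX2 less APEX2-NES (0 and 0), the 2016 table alone gave 1 higher and 1 lower, and bound RNA alone 1 lower.

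Against the negative control in bound RNA, H2B-APEX2 (2 and 2) had 1 higher and 1 lower at RPKM 5, and 0 lower with the GC trend removed and at pseudocount 5. Connexin43-APEX2 (1 and 0) had 2 higher and 1 lower in the 2016 table alone. It had 0 higher with the GC trend removed, at RPKM 5, without centring, without the filter and at pseudocount 5, and 1 lower without centring and without the filter. APEX2-NES (0 and 0) had 2 lower in the 2016 table alone, and 1 without centring and without the filter. In total RNA, Connexin43-APEX2 (1 lower) had 3 with TMM and without centring and 2 without the filter. APEX2-NES (0) had 1 with TMM and at pseudocount 0.1, and 2 without centring and without the filter, and H2B-APEX2 (0) had 1 without centring.

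For bound minus total RNA, APEX2-NES (1 lower, 0 higher) had 6 lower with TMM, 2 with protein-coding centring and at pseudocount 0.1, and 0 at RPKM 5, without centring and at pseudocount 5. It had 2 higher at RPKM 5. Connexin43-APEX2 (0 and 0) had 5 lower with TMM, and 1 with protein-coding centring, with the GC trend removed and at pseudocount 0.1. It had 1 higher at RPKM 5 and at pseudocount 0.1. H2B-APEX2 (4 lower, 0 higher) had 2 lower with the GC trend removed and at RPKM 5, and 1 higher at RPKM 5, without centring and without the filter. The negative control (8 lower, 0 higher) had 0 lower at RPKM 5 and 3 without centring, without the filter and at pseudocount 5. It had 1 higher with TMM, with the GC trend removed, without centring, without the filter and at pseudocount 0.1.

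For footprints, a share of clusters in place of reads gave 0 calls in each pair, but only 1 or 2 members reached the minimum of 10, so it says nothing of BSG or CD151. With exonic reads only, APEX2-NES over the negative control had 0 lower (main 1) and Connexin43-APEX2 over H2B-APEX2 2 higher (main 1). The call lost in APEX2-NES was CD151, whose 12 reads there all lay outside the annotated regions. It had 19 exonic reads in the negative control, and the rule makes no call where a line has 0 reads. The loss of this call is therefore no sign of a smaller difference. Counted in clusters, introns made up 82.1% of TSPAN3 in H2B-APEX2 and 16.7% in Connexin43-APEX2.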

Other observations

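The absence of footprints around CD99 covers well-captured RNA. SLC25A6, which encodes a mitochondrial ADP/ATP carrier and lies between the end of the short arm of X and CD99, had 2900 bound reads in Connexin43-APEX2, 1596 in H2B-APEX2, 2339 in APEX2-NES and 2186 in control cells. It had 0 footprint clusters in each of these lines.

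The members differed in footprint reads per 1000 bound reads (2017 table). The values were 99.5 to 254 for TSPAN3 and 40.7 to 245 for CD81, against 11.2 to 41.2 for BSG and 0 to 35.4 for CD63. Within each line TSPAN3 and CD81 had more than BSG, the closest being CD81 at 40.7 and BSG at 11.2 in Connexin43-APEX2. The lines are not compared on this measure, because their footprint and bound libraries differ in depth.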
